A study of Mus musculus with 10 samples.

Results

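Transcripts of 10 fibroblast growth factor (FGF) genes were followed in purified hepatic stellate cells (HSCs), namely the ligands Fgf1, Fgf2, Fgf7 and Fgf18, the intracellular FGF homologue Fgf13, the receptors Fgfr1, Fgfr2, Fgfr3 and Fgfr4, and the receptor-like Fgfrl1. They were taken by gene symbol from the 25233 entries with a symbol in the deposited table, and all 10 were found. Gene expression had been measured by RNA sequencing in 5 preparations of quiescent HSCs (qHSCs) and 5 of hypertrophied HSCs (hypHSCs) of C57BL/6J mouse liver. The qHSCs came from mice on a standard diet aged 36 weeks (qHSC 1, 2 and 5) or 34 weeks (qHSC 3 and 4). The hypHSCs came from mice given CDAHFD, a fat-rich diet without choline on which the liver turns fatty and fibrotic, for 13 weeks (hypHSC 1 and 2, aged 19 weeks) or 12 weeks (hypHSC 3, 4 and 5, aged 18 weeks). Livers were digested in place, lipid-rich cells were floated on a density gradient and the autofluorescence of their retinoid droplets was used to sort them. The digestion and the sorting gate were not the same for both kinds of cell, so diet, age, digestion and gate cannot be told apart in this comparison.

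FGFs are secreted proteins that bind, together with heparan sulfate on the cell surface, to receptor tyrosine kinases and switch on the RAS and MAP kinase, PI3 kinase and phospholipase C pathways. Signalling is held back by inhibitors that the pathway itself induces, among them the Sprouty proteins and the phosphatase DUSP6. In liver, FGF signals take part in development, regeneration, bile acid control through FGFR4 and wound healing, in which stellate cells turn into matrix-producing myofibroblasts.

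The cell labels were first set against marker genes. The qHSC libraries carried stellate cell transcripts at high levels, with 810326 to 1472120 normalized counts summed over 10 stellate markers, whereas the hypHSC libraries held 7924 to 21715. All 10 stellate markers were lower in hypHSCs (log2 fold changes between -8.11 and -2.87, limma), while Ngfr and Gfap were at 0 in some hypHSC libraries and the other 8 were detected in each. Of 12 macrophage markers 10 were higher in hypHSCs, while Clec4f (log2 fold change 1.15) and Timd4 (-3.14) were not called. The sum over all 12 was 1033230 to 1442250 in hypHSCs, of which Lyz2 alone had a mean of 845672. In qHSCs the sum was 5349 to 123090, with qHSC 1 and qHSC 4 the highest. By these lists the hypHSC libraries were richer in macrophage than in stellate transcripts, against their label of hepatic stellate cells. The 9 hepatocyte markers were not called in either direction, the 5 cholangiocyte markers tested were all higher in hypHSCs, and of the 5 tested markers of portal fibroblasts and mesothelium 3 were higher. Of 7 tested sinusoidal endothelial markers 1 was higher and 2 were lower in hypHSCs. Library depth was 30534719 to 47317028 reads on genes with a symbol, and mitochondrial transcripts took 2.21% to 12.8% of the reads in hypHSCs and 1.25% to 1.61% in qHSCs. Genes with a symbol and a read numbered 14949 in hypHSC 4 and 14028 in hypHSC 5, against 15703 to 16634 in the other libraries. The part of these differences in the FGF results was not tested, and in such bulk libraries fewer cells of a type and less RNA per cell cannot be told apart.

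Fgfr2 and Fgf13 showed the largest differences of the 10 genes, in opposite directions, and the sequences upstream of their starts are therefore shown. Fgfr2 (chromosome 7, 129764181 to 129868538, minus strand, GRCm39) has 1 start in the RefSeq promoter table used, and Fgf13 (chromosome X, 58107505 to 58630932, minus strand) has 4, of which the outermost coincides with the end of the gene as deposited. The 250 bases before a start are given, from RefSeq on GRCm38.p6, placed on GRCm39 by an exact match. Capitals mark GC boxes (GGGCGG on either strand), and the letters TATAAA and TGANTCA (AP-1 site) were searched as well.
Fgfr2 before the start at chr7:129868539-129868788 (minus strand): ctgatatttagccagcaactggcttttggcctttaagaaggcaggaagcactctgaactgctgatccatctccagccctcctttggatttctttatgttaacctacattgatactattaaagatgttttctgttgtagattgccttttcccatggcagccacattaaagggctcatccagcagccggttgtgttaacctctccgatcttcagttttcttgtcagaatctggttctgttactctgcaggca
Fgf13 before the outermost start at chrX:58630933-58631182 (minus strand): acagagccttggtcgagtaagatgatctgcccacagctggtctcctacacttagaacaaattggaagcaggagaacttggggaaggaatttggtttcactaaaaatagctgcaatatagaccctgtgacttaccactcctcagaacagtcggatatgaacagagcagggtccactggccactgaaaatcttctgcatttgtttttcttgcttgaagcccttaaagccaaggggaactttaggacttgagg
Fgf13 before the next start at chrX:58612709-58612958 (minus strand): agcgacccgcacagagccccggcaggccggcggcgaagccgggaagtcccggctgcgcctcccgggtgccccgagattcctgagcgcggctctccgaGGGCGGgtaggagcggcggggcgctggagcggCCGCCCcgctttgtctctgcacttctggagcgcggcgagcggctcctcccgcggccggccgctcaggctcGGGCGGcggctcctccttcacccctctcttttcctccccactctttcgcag
The windows of Fgfr2 and of the outermost Fgf13 start were poor in CpG, with 2 CpG each and a GC content of 44% and 45.6%, against a median of 6 CpG and 52.4% over all 32536 windows. Neither held any of the motifs. By contrast, the window of the next Fgf13 start had 33 CpG, a GC content of 74.8% and 3 GC boxes. GC boxes occurred in 33% of all windows, TATAAA in 12.3% and the AP-1 letters in 6.73%. Of the remaining Fgf13 starts, the one at chrX:58211449-58211698 had 1 match to the AP-1 letters, and the one at chrX:58179797-58180046 had 4 GC boxes. Reads were counted over the whole gene, so the values below do not say which Fgf13 start was used.

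The question was how the FGF ligands and receptors differed between hypHSCs and qHSCs. Values are normalized counts, that is reads divided by the size factor of the library. Genes that reached 10 normalized counts in 5 or more libraries were tested with limma on log2(normalized count + 1). A gene was called when its adjusted p was 0.05 or less and its log2 fold change was 1 or more in either direction. Of the 10 FGF genes 8 were tested, 2 were called higher in hypHSCs (Fgf13, Fgfr3), 4 were called lower (Fgf1, Fgfr1, Fgfr2, Fgfrl1) and 2 were not called (Fgf7, Fgfr4). Over all 14630 genes tested, 39.5% were called, 17.8% higher (2602 genes) and 21.7% lower (3177 genes). The split depends on the scaling, with 2013 higher and 4242 lower at equal library totals and 1472 higher and 7020 lower when libraries were scaled on Hprt, Pgk1 and Actb. Fgf13 was tested only because of its level in hypHSCs, so its call is a description. Of the other 7 genes 5 were called, and their median log2 fold change was -1.82, against -0.20 over all genes tested. With so few genes, chosen with earlier results known, these figures are a description. In 4 of the 8 tested genes (Fgf1, Fgf13, Fgfr1, Fgfr2) the groups did not overlap, against 39.5% of all genes tested. With Fgf13 among them and so few genes, this too is a description. Fgf2 and Fgf18 did not reach the minimum.

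**Figure D1:**
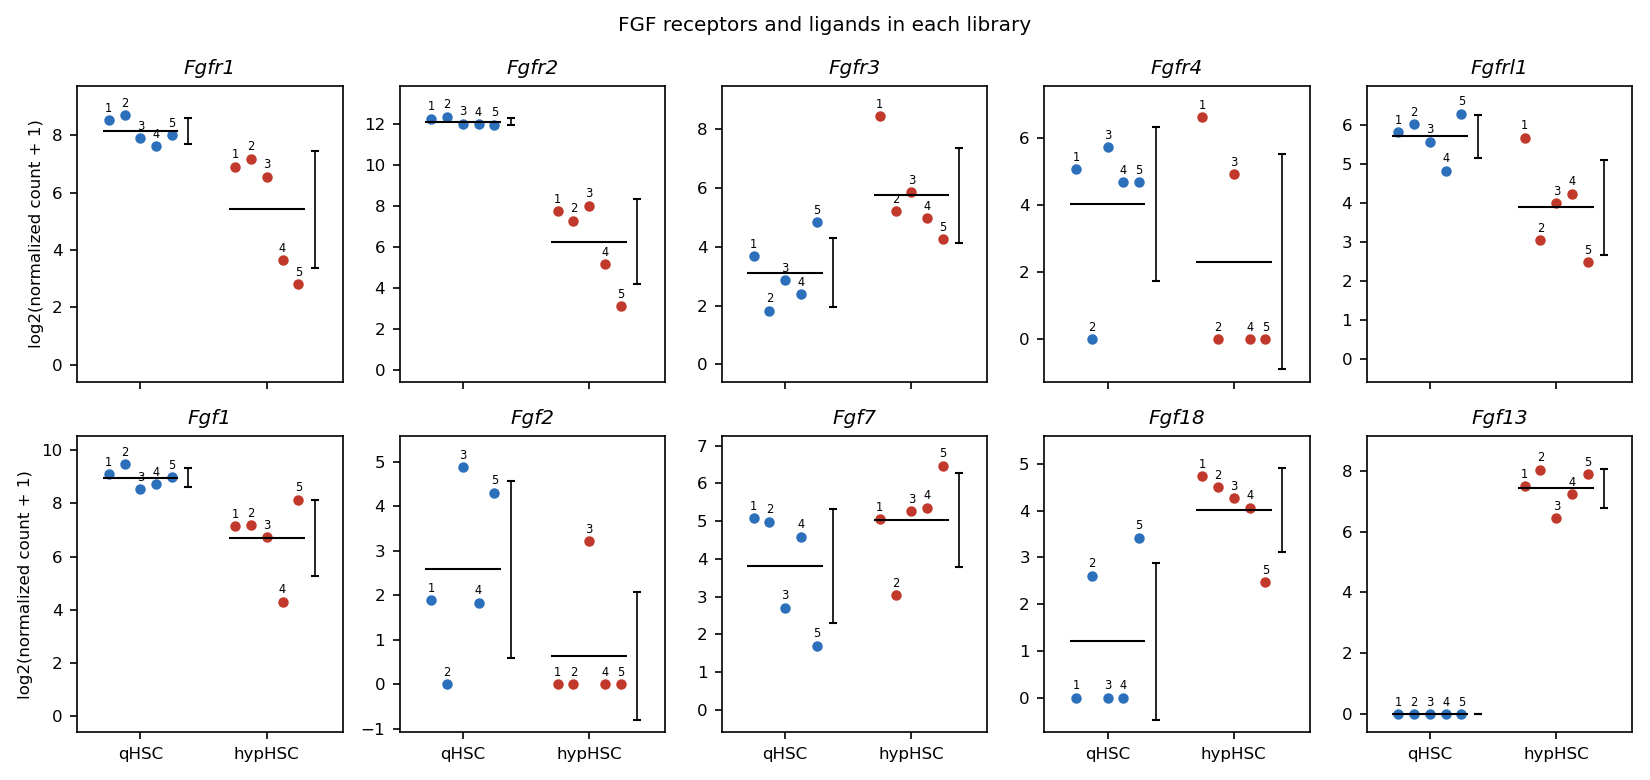
Level of each FGF gene in each library, as log2(normalized count + 1) on the vertical axis. Points are libraries with their replicate number, lines are group means and bars are 1 SD of the log2 values (n = 5). Fgfr2 stood between 3952 and 5229 normalized counts in qHSCs and between 7.56 and 255 in hypHSCs, and Fgf13 was at 0 in each qHSC library.

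Fgfr2, a receptor whose main forms answer to FGF7 and FGF10 or to FGF1, FGF2 and FGF18, had the highest level of the 10 genes in qHSCs. Its normalized counts in qHSC 1 to 5 were 4885, 5229, 4098, 4047 and 3952. In hypHSC 1 to 5 they were 213, 154, 255, 34.6 and 7.56. Every qHSC library was thus far above every hypHSC library, and hypHSC 4 and 5 were the lowest. The mean was 4442 ± 577 in qHSCs and 133 ± 109 in hypHSCs (SD, n = 5), a ratio of 33.4. The log2 fold change was -5.85 (SE 0.81, 95% confidence interval -7.62 to -4.08) with an adjusted p of 0.000137 in limma. The exact two-sided permutation test over all arrangements of the libraries gave p = 0.00794, the smallest it can give. The call was kept without hypHSC 5 (log2 fold change -5.06), without hypHSC 4 and 5 together (-4.43) and without qHSC 1 and 4, and over all alternatives the log2 fold change lay between -6.79 and -4.43.

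Fgfr1, the receptor with the broadest tissue range and the one that mesenchymal cells commonly use, was also lower in hypHSCs. Normalized counts were 368, 415, 235, 195 and 256 in qHSC 1 to 5. They were 119, 144, 93.1, 11.5 and 6.05 in hypHSC 1 to 5. The groups did not overlap, and the 3 upper hypHSC libraries stood well above hypHSC 4 and 5, in which Fgfr1 rested on as few as 4 reads. The log2 fold change was -2.73 (SE 0.82, 95% confidence interval -4.54 to -0.92) with an adjusted p of 0.0179 in limma and p = 0.00794 in the exact permutation test. Without hypHSC 5 the log2 fold change was -2.08 and without hypHSC 4 and 5 it was -1.27, both called. When qHSC 1 and 4 were left out the log2 fold change was -2.78 and the adjusted p 0.0653, so the call was lost.

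Fgfr3, a receptor known for its part in cartilage growth, went the other way. Normalized counts were 348, 36.2, 57.4, 30.4 and 18.2 in hypHSC 1 to 5. In qHSC 1 to 5 they were 11.8, 2.56, 6.30, 4.28 and 27.7. The groups overlapped, as qHSC 5 was above hypHSC 5, and hypHSC 1 was set apart from the other four. The log2 fold change was 2.63 (SE 0.85, 95% confidence interval 0.77 to 4.49), with an adjusted p of 0.0240 in limma and p = 0.0159 in the exact permutation test. Without hypHSC 1 the gene kept its call at a log2 fold change of 1.96, and without hypHSC 4 and 5 at 3.39, but the call was lost without qHSC 2 (log2 fold change 2.31), without qHSC 4 (2.45), without qHSC 1 and 4 together (2.57), with the 12-week hypHSCs alone (1.91) and under scaling on Hprt, Pgk1 and Actb (1.76). Cholangiocyte markers other than Spp1 summed to 3029 normalized counts in hypHSC 1, 530 to 791 in the other hypHSC libraries and 6.29 to 58.8 in qHSCs. Their part in the Fgfr3 value was not tested. An annotated gene overlaps 12.6% of the exon bases of Fgfr3, and the libraries do not keep the strand.

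Fgfr4, the receptor through which hepatocytes answer to the bile acid hormone FGF15, was low and uneven. Its normalized counts were 97.0, 0, 29.1, 0 and 0 in hypHSC 1 to 5. Those of qHSC 1 to 5 were 32.6, 0, 52.0, 24.8 and 24.7. Both groups held libraries with no read, and hypHSC 1 was the highest of all 10. The log2 fold change of -1.73 had a 95% confidence interval of -5.16 to 1.70 and an adjusted p of 0.385 in limma, so neither a fall nor a rise could be shown given the spread between libraries.

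Fgfrl1, a receptor-like protein that binds FGFs and lacks the tyrosine kinase domain, was called lower in hypHSCs. Normalized counts in hypHSC 1 to 5 were 49.9, 7.25, 15.0, 17.8 and 4.54. In qHSC 1 to 5 they were 55.2, 63.9, 46.5, 27.4 and 77.2. The groups overlapped through hypHSC 1. The log2 fold change was -1.82 (SE 0.63) with an adjusted p of 0.0324 in limma and p = 0.0238 in the exact permutation test. This call was the least stable of the 6 and was lost in 10 of 24 alternatives, including the edgeR test on reads, hypHSC 4 and 5 left out together (log2 fold change -1.47), qHSC 1 and 4 left out together (-2.08), and the leaving out of hypHSC 2, hypHSC 5, qHSC 1, qHSC 2, qHSC 3 or qHSC 5 (between -1.85 and -1.47).

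**Figure D2:**
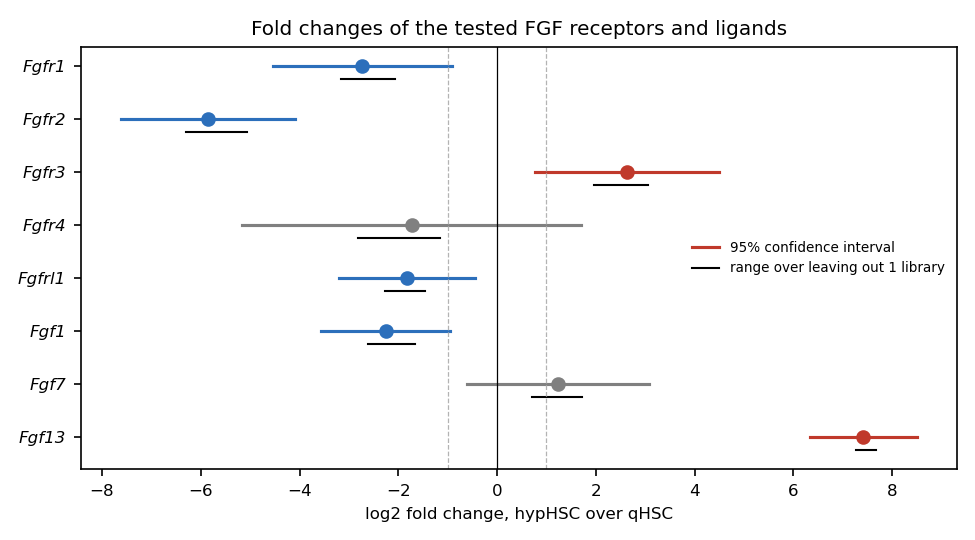
Log2 fold change of hypHSCs over qHSCs for the 8 tested FGF genes on the horizontal axis. Points are limma estimates, coloured bars are 95% confidence intervals (red called higher, blue called lower, grey not called), black bars are the range when each library was left out in turn, and dashed lines mark a log2 fold change of 1 in each direction. The intervals of Fgfr4 and Fgf7 include 0. Fgf13 was tested only because of its level in hypHSCs, so its call and interval are a description.

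Levels of different genes were compared as FPKM, reads scaled to the exon length of the gene and to the reads of the library on genes with a symbol. In qHSCs Fgfr2 stood at 13.2 ± 1.86 FPKM (SD, n = 5), followed by Fgf1 at 2.05 ± 0.50, Fgfr1 at 0.78 ± 0.25 and Fgfrl1 at 0.52 ± 0.16. The ranges of Fgfr2 and Fgf1 were apart, as were those of Fgf1 and Fgfr1, whereas Fgfr1 and Fgfrl1 overlapped. Below them came Fgf2 at 0.26, Fgfr4 at 0.19, Fgf7 at 0.18, Fgf18 at 0.048 and Fgfr3 at 0.036 FPKM, each overlapping its neighbour in this order, and then Fgf13, which had no read.

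In hypHSCs the order of FPKM levels was Fgf13 at 0.75 ± 0.27, Fgf1 at 0.43 ± 0.26, Fgfr2 at 0.33 ± 0.28, Fgf7 at 0.29 ± 0.18, Fgfr3 at 0.27 ± 0.39 and Fgf18 at 0.24 ± 0.12 (SD, n = 5). Fgfr1, Fgfrl1, Fgfr4 and Fgf2 followed with 0.16, 0.15, 0.14 and 0.038 FPKM. Every neighbouring pair of this order overlapped, so no gene of it could be set above the next. Of the 10 genes, Fgfr2 in qHSCs alone exceeded 10 FPKM.

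The make-up of the signalling receptors differed as well. Summed over Fgfr1, Fgfr2, Fgfr3 and Fgfr4, the level was 11.7 to 16.5 FPKM in qHSCs and 0.0697 to 2.25 FPKM in hypHSCs. Fgfr2 gave 92.0% to 94.4% of this sum in qHSCs and 22.0% to 53.8% in hypHSCs. Fgfr3 gave 0.0536% to 0.763% in qHSCs and 13.0% to 62.1% in hypHSCs. The share of Fgfr1 was 4.10% to 6.67% in qHSCs and 11.2% to 39.7% in hypHSCs, although its level was lower there. The hypHSC shares rest on few reads, 21 in hypHSC 5 and 73 in hypHSC 4 against 323 to 576 in the other hypHSC libraries and 4992 to 6627 in qHSCs.

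**Figure D3:**
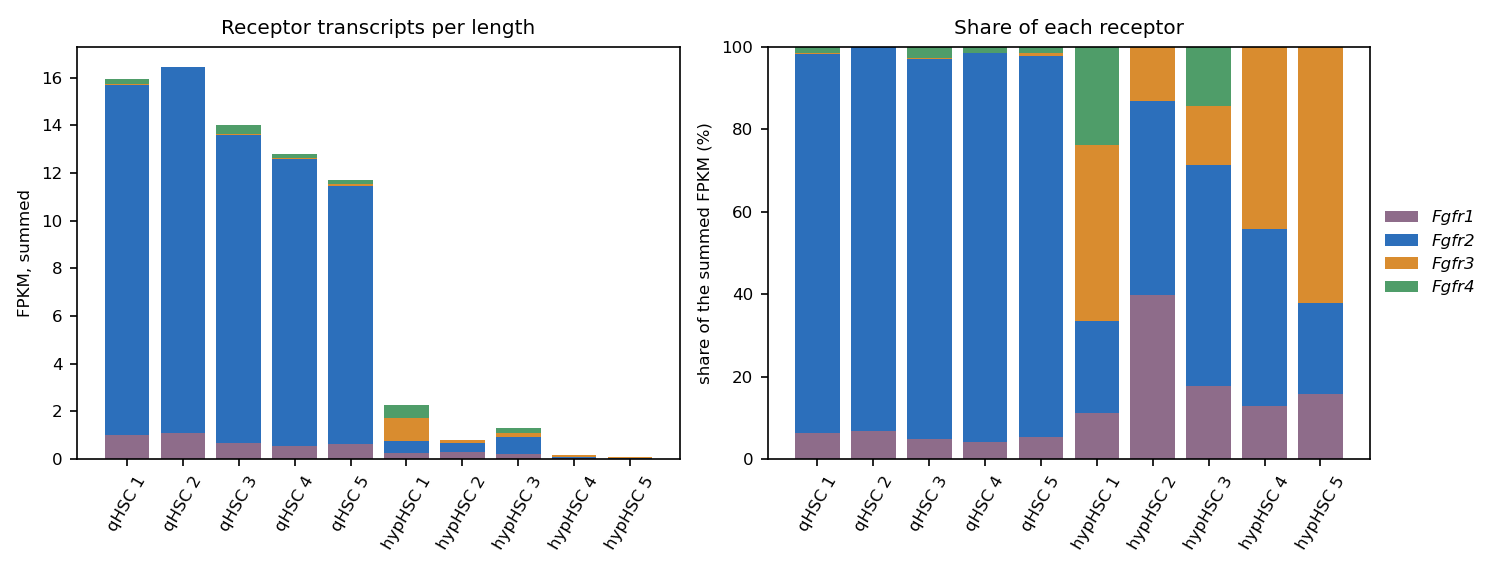
Receptor transcripts in each library. Left, the FPKM of Fgfr1 to Fgfr4 stacked on a linear axis; right, the share of each receptor in that sum in percent. Fgfr2 fills 92.0% to 94.4% of the bars of the qHSC libraries, while the total in hypHSC 5 is 0.0697 FPKM.

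Of the 4 ligands followed, leaving aside the intracellular homologues, Fgf1, which lacks a classical secretion signal and binds all FGF receptors, had the highest level in qHSCs and was lower in hypHSCs. Normalized counts were 542, 712, 372, 424 and 502 in qHSC 1 to 5. In hypHSC 1 to 5 they were 141, 144, 106, 18.9 and 280. The groups did not overlap, with hypHSC 4 the lowest and hypHSC 5 the nearest to qHSCs. The mean was 510 ± 131 in qHSCs and 138 ± 94.1 in hypHSCs (SD, n = 5). The log2 fold change was -2.26 (SE 0.59, 95% confidence interval -3.56 to -0.96), with an adjusted p of 0.00849 in limma and p = 0.00794 in the exact permutation test. Fgf1 kept its call in 25 of 25 alternatives, at -1.66 without hypHSC 4. Of the 5 hypHSC libraries, hypHSC 5 had the highest Fgf1 and the lowest Fgfr2 level.

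Fgf7, the keratinocyte growth factor that mesenchymal cells send to epithelial cells, was at 32.3, 7.25, 37.4, 39.9 and 87.7 normalized counts in hypHSC 1 to 5. It was at 32.6, 30.7, 5.51, 23.1 and 2.25 in qHSC 1 to 5. The groups overlapped widely. Its log2 fold change of 1.23 (SE 0.84, 95% confidence interval -0.61 to 3.07) did not pass, with an adjusted p of 0.248 in limma and p = 0.167 in the exact permutation test.

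Fgf2, the basic FGF, was near the limit of detection and untested. It had a read in 1 hypHSC library (8.32 normalized counts in hypHSC 3) and in 4 qHSC libraries (2.72, 28.3, 2.57 and 18.7 in qHSC 1, 3, 4 and 5). The groups overlapped and the exact permutation test gave p = 0.127. Annotated genes, the antisense Nudt6 among them, overlap 23.6% of its exon bases, and without strand their reads cannot be told apart.

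Fgf18, a ligand of FGFR3 and of some forms of FGFR1 and FGFR2, was low too. Its normalized counts were 25.6, 21.7, 18.3, 15.7 and 4.54 in hypHSC 1 to 5. In qHSC 2 and 5 they were 5.11 and 9.74, and the other three qHSC libraries had no read. The top 4 hypHSC libraries were above every qHSC library, and hypHSC 5 was not. The exact permutation test gave p = 0.0238, and a limma fit without the minimum gave a log2 fold change of 2.80 with an adjusted p of 0.0212. With no read in most qHSC libraries, this fold change depends on the pseudocount and is a description.

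Fgf13, which belongs to the intracellular FGF homologous factors that act on sodium channels and microtubules and are not secreted, was present in hypHSCs and had no read in qHSCs. Normalized counts were 181, 262, 85.7, 149 and 236 in hypHSC 1 to 5, from 103 to 253 reads. All 5 qHSC libraries had 0 reads. The level in hypHSCs, 183 ± 70.1 (SD, n = 5), was at least 73.3-fold higher than the floor of 3 reads per qHSC library, a floor that covers counting error only. Since Fgf13 entered the test through hypHSCs alone, no p-value is given, and its fitted log2 fold change of 7.42 depends on the pseudocount.

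The hypHSC libraries themselves were of unequal diet time. With 2 libraries at 13 weeks and 3 at 12 weeks no test was made. Fgfr1 was at 119 and 144 normalized counts at 13 weeks and at 6.05 to 93.1 at 12 weeks, without overlap. Fgf18 was likewise higher at 13 weeks, at 21.7 and 25.6 against 4.54 to 18.3. Fgf7 was lower at 13 weeks, at 7.25 and 32.3 against 37.4 to 87.7. The other 7 genes overlapped between both times, Fgf13 for instance at 181 and 262 against 85.7 to 236. Of all 14630 genes tested, 21.9% did not overlap between the times. The 3 of 10, with the untested Fgf18 among them, are therefore read as no result about the FGF genes.

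Genes whose level over the 10 libraries was most like that of the leading receptor and the leading ligand were listed as a description. For Fgfr2 these included Zfp267 and Trip10, with Pearson correlations of 0.997 and 0.996 over the log2 values of 10 libraries. For Fgf1 they were Garnl3, Zcchc3 and Gphn, with 0.981, 0.977 and 0.976. Each of the 5 named was lower in hypHSCs, and such correlations reflect the split into both groups and the shared size factor of each library.

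Of 17 other ligand and FGF homologue genes, Fgf12 and Fgf11 were tested. Fgf12, an intracellular homologue like Fgf13, was at 636, 887, 699, 523 and 952 normalized counts in qHSC 1 to 5. It was at 82.2, 5.18, 20.8, 21 and 24.2 in hypHSC 1 to 5. The groups did not overlap, and the log2 fold change was -4.99 (SE 0.57) with an adjusted p of 3.8e-05 in limma. Fgf13 and Fgf12 thus stood in opposite order, Fgf13 high in hypHSCs and Fgf12 high in qHSCs. Fgf11, of the same subfamily, did not differ beyond the replicate spread (log2 fold change 0.00, SE 0.48, adjusted p 0.995 in limma). No read was found for Fgf4, Fgf5, Fgf8, Fgf10 and Fgf20 in any library, so that the FGFR2 ligand FGF10 was not detected at this depth. The other 10 had reads but did not reach the minimum.

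Among these Fgf21 and Fgf23, hormone-like FGFs named here after their values had been seen, had more than 30 normalized counts in some hypHSC libraries. Fgf21, a hormone of fasting metabolism, was at 37.7, 93.2, 0, 237 and 0 in hypHSC 1 to 5 and at 0, 0, 10.2, 6.85 and 8.99 in qHSC 1 to 5. Fgf23, a hormone of phosphate balance, was at 1.35, 21.7, 21.6, 32.5 and 112 in hypHSC 1 to 5 and at 0.86 to 1.70 in qHSCs. Both overlapped between groups. Without the minimum the log2 fold change was 1.99 for Fgf21 (adjusted p 0.368, limma) and 3.24 for Fgf23 (adjusted p 0.0135, limma). As both were low in qHSCs and named after their values had been seen, these figures are a description. The hormones FGF15 and FGF21 need the co-receptor beta-Klotho, whose gene Klb had no read in hypHSCs and was at 12.7, 29.8, 16.5, 0 and 39.0 normalized counts in qHSC 1 to 5. Another annotated gene, Rpl9, overlaps 14.5% of the exon bases of Klb.

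Of 31 genes of co-receptors and of the heparan sulfate that FGFs need for binding, 23 were tested, and 6 were called higher and 5 lower in hypHSCs. This is 47.8% called, near the 39.5% of all genes tested, with a median log2 fold change of -0.09 against -0.20. Flrt2 and Flrt3, membrane proteins that bind FGF receptors, were higher. Flrt2 was at 526, 806, 640, 339 and 823 normalized counts in hypHSC 1 to 5 and at 0.86 to 19.6 in qHSCs. Its log2 fold change was 6.75 (SE 0.63). Flrt3 was at 470, 324, 160, 141 and 107 in hypHSC 1 to 5. In qHSCs it was at 12.7 in qHSC 1 and at 0 in the others. The log2 fold change of Flrt3 was 6.94 (SE 0.82), or 7.69 without qHSC 1. Both genes, counted among the 6 called higher, reached the minimum through hypHSCs. Their calls are therefore a description, and no p-value is given. No hypHSC library overlapped with a qHSC library in either gene.

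Sulf2, a sulfatase that removes sulfate from heparan sulfate outside the cell, was higher in hypHSCs, at 768 to 1626 against 3.41 to 44.4 normalized counts (log2 fold change 5.72, SE 0.59, adjusted p 1.7e-05 in limma). Its homologue Sulf1 did not pass (-0.02, SE 0.39). Among the carriers of heparan sulfate, Sdc1 (4.33) and Gpc1 (3.35) were higher while Sdc2 (-2.84), Gpc4 (-4.49), Gpc6 (-4.10) and the perlecan gene Hspg2 (-2.50) were lower on the log2 scale. Gpc4, a glypican, had 3059 to 5260 normalized counts in qHSCs and 91.5 to 286 in hypHSCs. Another annotated gene overlaps 16.8% of the exon bases of Gpc1.

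The 21 transducers that carry the signal from the receptor were all tested, and 4 were called higher and 5 lower in hypHSCs. This is 42.9% called, near the 39.5% of all genes tested, with a median log2 fold change of -0.40 against -0.20. Gab1, the docking protein that links the receptor complex to PI3 kinase, was lower, at 75.5 to 244 normalized counts in hypHSCs and 1083 to 1726 in qHSCs (log2 fold change -3.11, SE 0.31, adjusted p 1.3e-05 in limma). Also lower were Frs2 (-1.04), which receptors phosphorylate first, Shc1 (-1.37), Pik3r1 (-1.70) and Plcg1 (-3.07). Frs2 overlapped between groups, with hypHSCs up to 589 and qHSCs from 563 normalized counts. Plcg1 was low, at 0 to 31.0 normalized counts in hypHSCs against 31.5 to 66.1 in qHSCs (SE 1.01, adjusted p 0.0269 in limma). The adaptor gene Grb2 was higher, at 5236 to 7689 against 847 to 1187 normalized counts (2.78, SE 0.16, adjusted p 2.8e-07 in limma), and Nras (1.78) and Map2k2 (1.23) were among the others called higher. These transducers serve many receptors besides those of FGF.

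Of the 11 feedback inhibitors tested, 5 were called lower, 2 higher and 4 not called. This is 63.6% called, against 39.5% of all genes tested, with a median log2 fold change of -2.17 against -0.20. Spry1, a Sprouty inhibitor of RAS signalling, was at 12765, 14103, 9269, 12909 and 12582 normalized counts in qHSC 1 to 5. It was at 980, 451, 298, 132 and 186 in hypHSC 1 to 5. The groups were far apart, and the log2 fold change was -5.26 (SE 0.45, adjusted p 4.7e-06 in limma), or -4.58 without hypHSC 4 and 5.

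Spry4 (log2 fold change -3.97, SE 0.45), Spry2 (-2.57, SE 0.54) and Dusp6 (-2.17, SE 0.29) were lower too, with adjusted p values of 3.3e-05, 0.00246 and 0.000112 in limma. In Spry2 the hypHSC libraries were at 229, 172, 113, 354 and 1361 normalized counts against 1509 to 2163 in qHSCs, so that hypHSC 5 came close to qHSCs, and the log2 fold change was -3.39 without hypHSC 4 and 5. Dusp6, which removes phosphate from ERK, was still at 985 to 2611 normalized counts in hypHSCs against 6512 to 13993 in qHSCs. Il17rd, the Sef inhibitor, was lower (-2.81), whereas Cbl (1.76), a ubiquitin ligase of many receptors, and Dusp5 (1.03) were higher. The Spred genes and Dusp4 were not called. Other annotated genes overlap 28.2% of the exon bases of Dusp5, 23.8% of Dusp6, 15.6% of Spry1 and 14.5% of Spry2, and the libraries do not keep the strand.

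Of the 7 tested response genes, transcription factors and other genes that FGF and many other growth factors induce, 1 was called lower, 1 higher and 5 were not called. This is 28.6% called, below the 39.5% of all genes tested, with a median log2 fold change of -0.92 against -0.20. Etv1, an ETS factor downstream of FGF signals, was at 1652, 1904, 1260, 1247 and 1149 normalized counts in qHSC 1 to 5 and at 133, 65.2, 64.0, 26.2 and 24.2 in hypHSC 1 to 5 (log2 fold change -4.76, SE 0.44, adjusted p 8.1e-06 in limma), with -4.09 on the log2 scale without hypHSC 4 and 5. Its relative Etv5 did not differ beyond the replicate spread (0.03, SE 0.35). Fosl1 was higher (2.32, SE 0.62, adjusted p 0.00928 in limma), a call lost without qHSC 1 and 4 (2.02) and under scaling on Hprt, Pgk1 and Actb (1.41), and Egr1, Fos, Myc and Ccnd1 were not called, Fos with a log2 fold change of -0.92 and an adjusted p of 0.0352 in limma. Other annotated genes overlap 69.1% of the exon bases of Fosl1.

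**Figure D4:**
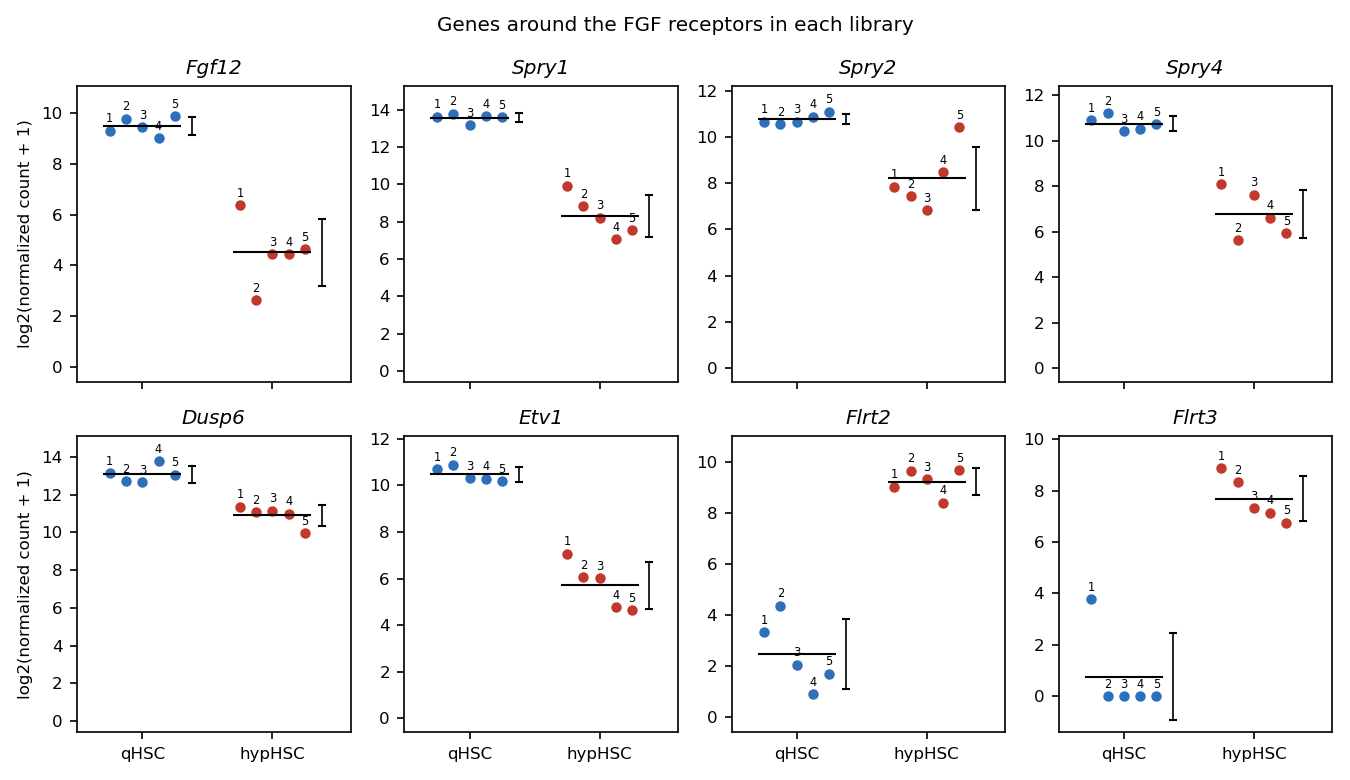
Level of 8 genes around the FGF receptors in each library, as log2(normalized count + 1), drawn as in the plot of the receptors and ligands. Fgf12, the Sprouty genes, Dusp6 and Etv1 were lower in each hypHSC library than in any qHSC library, and Flrt2 and Flrt3 were higher.

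**Figure D5:**
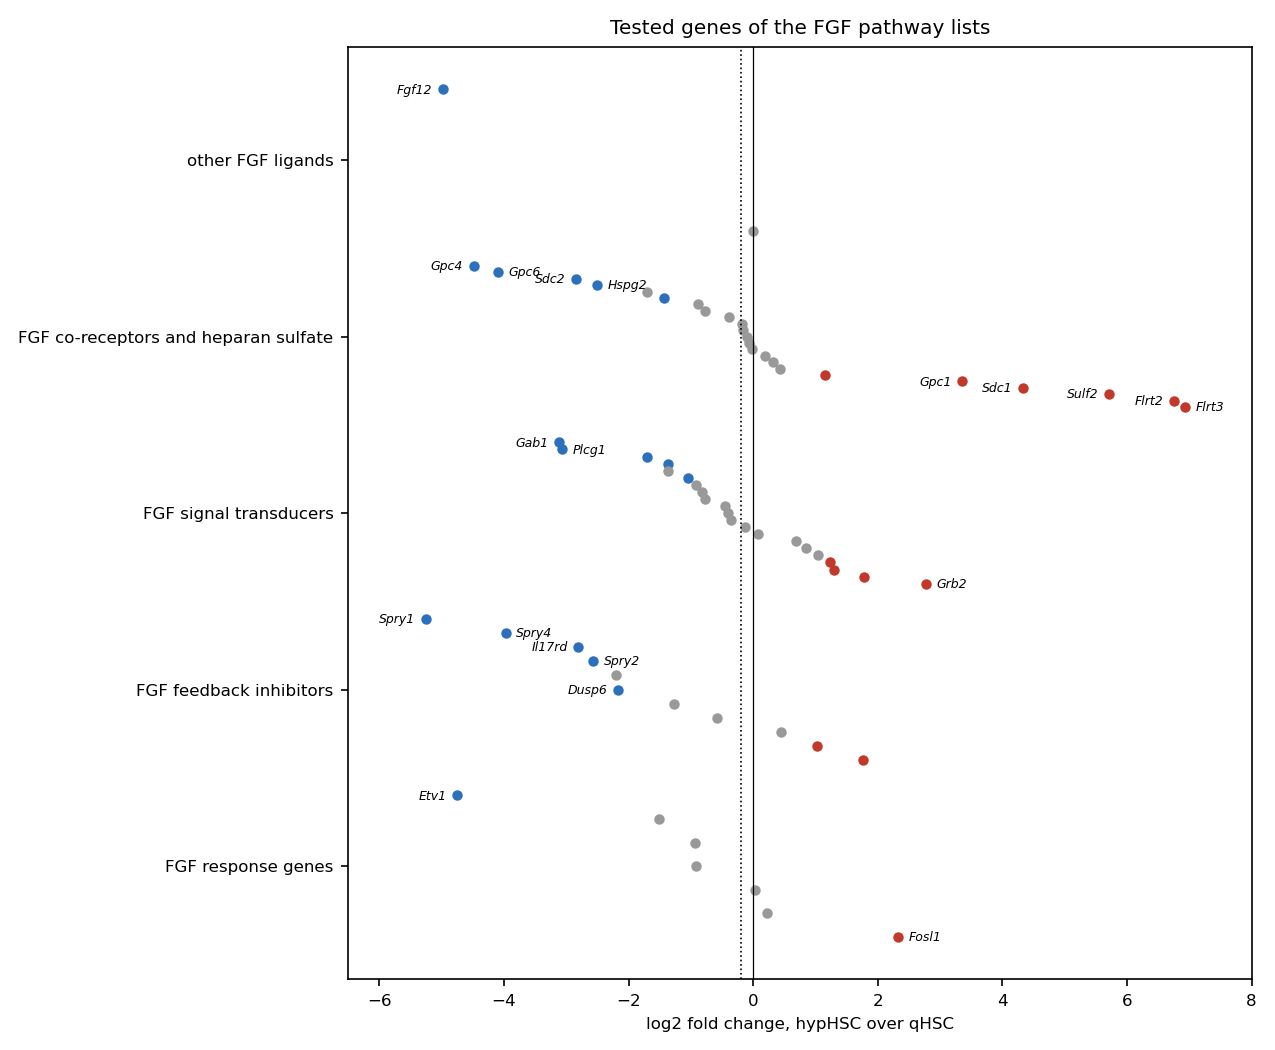
Log2 fold change of hypHSCs over qHSCs for each tested gene of the 5 pathway lists on the horizontal axis. Red points were called higher, blue lower and grey not called, the dotted line marks the median of all genes tested (-0.20), and called genes with an absolute value over 2 are named. The feedback inhibitors had 5 of 11 genes called lower and 2 called higher. Flrt2 and Flrt3 were tested through hypHSCs, so their red points are a description.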

How the data were processed

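Gene expression was measured by RNA sequencing of sorted cells in 5 hypHSC and 5 qHSC libraries, made from low-input RNA without strand and chosen for RNA quality per the labels. The authors mapped the reads to mm39 with STAR, counted them per gene with featureCounts and divided them by DESeq2 size factors. The deposited values are thus a signal per gene, here called the normalized count. Per the submitters' processing notes, STAR was 2.7.5a12 and Subread 1.5.0.

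Each deposited column was turned back into whole reads, for 99.98% to 100% of its values. These reads gave depth, FPKM, DESeq2 and edgeR results, and the deposited values gave all others. FPKM used the exons of GENCODE for GRCm39 within the deposited gene span. A span can include starts or readthrough exons, so lengths are approximate. Because the table holds normalized counts, limma (3.58.1, R 4.3.3, lmFit and eBayes with an intensity trend) on log2(normalized count + 1) was the main test, with Benjamini-Hochberg adjustment over the 14630 genes with a symbol that reached 10 normalized counts in 5 or more libraries. edgeR 4.0.16, DESeq2 1.42.0, other pseudocounts, filters and scalings, a replicate block and the leaving out of libraries were alternatives. Exact two-sided permutation tests ran over all arrangements of 5 against 5. The fit was tested on simulated data. Nothing says whether replicates shared animals, so p-values measure the spread between these preparations.

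The members and lists were chosen with earlier results of these data known. All 10 FGF genes were named. Of each pathway list, the called genes whose mean in a group was 100 normalized counts or more were named, up to the 4 with the largest log2 fold change; any others named were chosen after their values were seen. For the leading receptor and ligand, the 3 genes of highest Pearson correlation were taken. A gene of this kind and a called transducer are not reported here.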

Additional observations from a re-analysis of the deposited data

Results flagged for a closer look

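In groups of 5 libraries, a library was singled out when its gap to the nearest of the others exceeded 0.71 of the group's range. For normally distributed values chance gives this in about 1 group in 20, a rate that need not hold for normalized counts with zeros. Of 49 groups examined over the FGF genes and the named pathway genes, 6 had such a library.

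Fgfr3 in hypHSC 1 was at 347.66 normalized counts, with the other hypHSC libraries between 18.15 and 57.38. Fgf12 was also highest in hypHSC 1, at 82.2 against 5.18 to 24.2. Fgf2 in hypHSC 3 was at 8.32, where the other four hypHSC libraries had no read.

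Spry2 in hypHSC 5 was at 1361.23, with the others between 113.1 and 353.55. Fosl1 in hypHSC 3 was at 241.16, with the others between 98.37 and 139.15. Among qHSCs, Flrt3 was at 12.67 in qHSC 1 and had no read in the other four.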

How the results depend on the processing

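No log2 fold change of a tested FGF gene changed sign in any alternative. Of 195 such values, 179 kept their side of the threshold and 16 lost a call, as given above for Fgfr1, Fgfr3 and Fgfrl1. Fgf1 and Fgfr2 kept their calls in each alternative run. FGF genes called higher, 2, became 3 without the minimum and at equal totals, through Fgf18, 0 when a mean of 100 normalized counts was required, and 1 with scaling on Hprt, Pgk1 and Actb, with 12-week hypHSCs only and with qHSC 1 and 4 left out together, and ranged from 1 to 2 with each library left out, 1 without qHSC 2 and without qHSC 4. FGF genes called lower, 4, became 2 with qHSC 1 and 4 left out together, an alternative added after seeing the data, as was leaving out hypHSC 4 and 5. Called genes rose from 5779 to 9291 when entries without a symbol were included. Other ligands called, 1, became 2 without the minimum, through Fgf23. Response genes called, 2, became 1 when that mean was required and with qHSC 1 and 4 left out together, and 4 at equal totals and under scaling on Hprt, Pgk1 and Actb, and ranged up to 4 without qHSC 3. The cause was not tested.

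The median log2 fold change of all genes, -0.20, was -0.55 at equal totals and -1.13 under scaling on Hprt, Pgk1 and Actb. Relative to it, the receptors and ligands that were called lower remain below and those called higher above. Nras lost its call under scaling on Hprt, Pgk1 and Actb (0.84).

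Replicate numbers did not pair the libraries: correlations of same-numbered deviations were 0.0658, 0.0734, 0.00815, 0.0616 and 0.129, and only number 5 correlated best with its own. With the replicate block 5786 genes were called, and of the FGF genes Fgfrl1 lost its call (adjusted p 0.0646, limma).

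A floor of 3 reads corresponds to 2.25 to 4.54 normalized counts, and Fgf2 in hypHSCs and Fgf18 in qHSCs were below it in most libraries, while Fgfr3 in qHSC 2 and Fgfrl1 in hypHSC 5 were at 3 reads each.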
